A study of Mus musculus with 26 samples.

Results

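Interferon-stimulated genes were followed through colitis-driven tumorigenesis in the colon of mice fed a standard diet or a diet with GW3965, a synthetic agonist of the liver X receptors. The module held 41 genes named from textbook knowledge of the interferon response, but they were chosen with earlier results of these data known. Of these, 28 were antiviral genes, 8 were interferon-inducible GTPases (5 guanylate-binding proteins, GBP, and 3 immunity-related GTPases, IRG) and 5 encoded chemokines or antigen-processing proteins. Each gene's level was the sum of the estimated counts of all its transcripts, among 35975 genes with matched transcripts, and all 41 were among the 17063 genes that passed the filter on low counts and were tested.

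All 26 samples were colon RNA of wild type C57BL/6J male mice, with a starting age of about 10 weeks. Tumours were driven with azoxymethane (AOM, 10 mg/kg), a mutagen, followed by 3 cycles of dextran sulfate sodium (DSS) in the drinking water, which injures the epithelium. Colons were collected on day 22, 43 or 70 after AOM, with 3 mice of each diet per day. Day 0 stands for 4 mice of each diet that received neither AOM nor DSS and were collected after 22 (2 mice) or 43 (2 mice) days on the diet, so each diet has its own controls. Below, day 0 values are given in the order 22 diet days replicate 1 and 2, then 43 diet days replicate 1 and 2, and the other values in the order of replicate 1 to 3. The day 0 mice came from 1 cage per diet, and those of days 22 and 43 from 1 other cage per diet, whereas each day 70 mouse had a cage of its own. Diet and cage therefore cannot be told apart at days 0, 22 and 43, nor can cage and treatment where days 22 and 43 are set against day 0. Day 70 set against day 0 or day 22 is likewise a comparison with mice of 1 cage per diet. No day 0 mouse had 70 days on its diet, so time on the diet also differs there. For 1 GW3965 day 0 sample the title and the diet label disagree, and it was placed by its title.

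Library totals ran from 18195345 to 41522204 estimated counts. Ribosomal protein genes took 10.0 to 18.6% of the counts at day 43 and 3.96 to 10.7% at the other days. RNA integrity numbers were 9.1 or more outside day 43, where they ran from 2.6 (standard diet, replicate 1) to 9.3. Markers of the labelled tissue were present in every library: the summed level of 8 colon epithelium genes ran from 2214 to 13505 CPM (counts scaled to a common library size).

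Interferons are cytokines that tell cells of an infection or of stray nucleic acid. Type I and type III interferons act through a complex with STAT2 and IRF9 that binds the interferon-stimulated response element (ISRE), whereas interferon gamma, made by T cells and natural killer cells, acts mainly at gamma-activated sites (GAS). Many target genes respond to both, but the antiviral genes (IFIT, OAS, ISG15) are strongly induced by type I and III interferon, and the GBP and IRG GTPases, CXCL9 and the immunoproteasome are well known for their response to interferon gamma.

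Both elements were looked for in the promoters. RefSeq promoter windows, from 250 bases before to 50 bases after the transcription start (GRCm38.p6), were at hand for 32 of the 41 genes. They were searched on both strands for an ISRE-like motif, which is GAAA, any 2 bases and GAAA again, and for a GAS-like motif, which is TTC, any 3 bases and GAA. Of the 32 genes, 3 had 2 windows, and a gene was counted where any of its windows held a match. An ISRE-like match was found for 18 of the 32 genes (56.25%), against 3.993% of the 27025 genes with a window, and a GAS-like match for 8 (25%), against 9.554%. By group, ISRE-like matches were found for 11 of 21 antiviral, 6 of 6 GBP and IRG, and 1 of 5 chemokine and antigen-processing genes, and GAS-like matches for 4, 3 and 1 of them. A match is a run of letters and not a measured binding site. Sequences of the genes whose values are described below are given as the 130 bases before the start, 5′ to 3′ on the gene's strand, with matches in capitals.

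The promoters of 4 antiviral genes with ISRE-like matches are shown because their transcripts carry results of days 22 and 70 described below. In Isg15 the 3 matches overlap.
Ifit1 (chr19:34640759-34640888, plus strand): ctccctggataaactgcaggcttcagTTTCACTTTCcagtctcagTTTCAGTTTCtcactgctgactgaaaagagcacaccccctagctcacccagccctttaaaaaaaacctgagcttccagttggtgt
Isg15 (chr4:156200819-156200948, minus strand): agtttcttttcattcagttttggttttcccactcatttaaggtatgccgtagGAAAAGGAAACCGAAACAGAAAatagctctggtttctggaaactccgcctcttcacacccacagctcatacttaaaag
Oas3 (chr5:120777660-120777789, minus strand): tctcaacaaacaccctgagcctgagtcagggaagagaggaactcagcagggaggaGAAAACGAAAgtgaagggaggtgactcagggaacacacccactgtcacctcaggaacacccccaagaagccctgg
Rsad2 (chr12:26456453-26456582, minus strand): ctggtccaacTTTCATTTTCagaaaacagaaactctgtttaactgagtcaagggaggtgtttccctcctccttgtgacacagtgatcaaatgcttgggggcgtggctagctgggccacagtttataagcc

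Among the GTPases and the antigen-processing genes, Gbp7 and Igtp held both motifs and Gbp2 held only the ISRE-like one, while Psmb8, an immunoproteasome subunit, held only the GAS-like one in its window. They are shown for comparison with the antiviral promoters.
Gbp2 (chr3:142620533-142620662, plus strand): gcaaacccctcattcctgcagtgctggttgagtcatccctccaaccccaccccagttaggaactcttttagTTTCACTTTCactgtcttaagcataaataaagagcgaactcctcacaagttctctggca
Gbp7 (chr3:142530206-142530335, plus strand): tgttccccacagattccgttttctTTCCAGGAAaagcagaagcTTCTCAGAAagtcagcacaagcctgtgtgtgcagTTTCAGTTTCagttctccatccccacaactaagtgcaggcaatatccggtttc
Igtp (chr11:58199426-58199555, plus strand): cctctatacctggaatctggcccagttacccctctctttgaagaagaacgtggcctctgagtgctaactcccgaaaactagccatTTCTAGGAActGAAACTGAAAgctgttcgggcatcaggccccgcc
Psmb8 (chr17:34198065-34198194, plus strand): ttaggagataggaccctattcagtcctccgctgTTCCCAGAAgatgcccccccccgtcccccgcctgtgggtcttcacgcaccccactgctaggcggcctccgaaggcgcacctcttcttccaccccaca

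**Figure D1:**
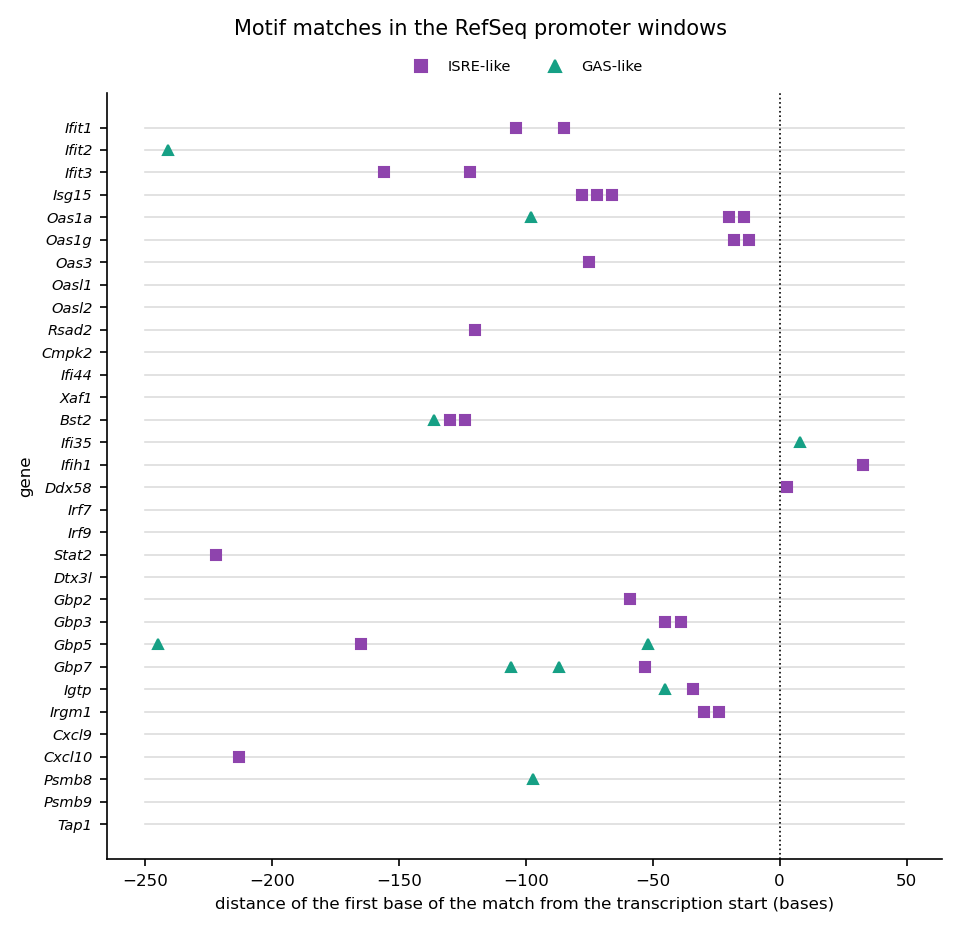
Places of ISRE-like (squares) and GAS-like (triangles) matches in the promoter windows of 32 genes, by the distance in bases of the first base of the match from the transcription start (dotted line). Of the 32 genes, 18 had an ISRE-like and 8 a GAS-like match, most of them within the last 130 bases before the start.

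To compare genes with each other, levels were taken per length, as TPM. Psmb8 had the highest mean of the module in each of the 8 groups, from 81.0 ± 15.2 TPM (SD, n = 4) at day 0 on GW3965 to 430 ± 79.3 TPM (SD, n = 3) at day 22 on GW3965. The gene in the next place differed between groups. At day 0 it was the tetherin gene Bst2, with 50.7 ± 12.1 TPM on the standard and 53.2 ± 4.0 TPM on the GW3965 diet, and on the standard diet the ranges of the 2 genes came close (61.8 to 133 TPM for Psmb8 and 40.1 to 61.6 TPM for Bst2).

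The first question was what AOM and DSS did to the module in mice on the standard diet. At day 22, after the first DSS cycle, 27 of the 41 genes had risen against day 0 and none had fallen (edgeR quasi-likelihood test, Benjamini-Hochberg adjusted p under 0.05 over 17063 genes), where 7.73% of all genes were called, 6.19% as higher and 1.54% as lower. In 33 of the 41 genes every day 22 library was above every day 0 library, as in 15.9% of all genes. The genes that rose were 22 of 28 antiviral genes, 4 of 5 chemokine and antigen-processing genes and 1 of 8 GTPases. The median difference was 1.55 on the log2 scale for the module, and over all genes it was -0.00105. In bulk tissue more cells of a type and more RNA per cell cannot be told apart.

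Oas2, one of the synthetases of the 2-5A messenger that activates RNase L, was read at 0.754, 0.378, 0.596 and 0.693 CPM on day 0 and at 12.7, 18.6 and 14.2 CPM on day 22. It rose 25.2-fold (log2 fold change 4.66 ± 0.59 SE, adjusted p = 0.000366), and the groups did not overlap. Isg15, a ubiquitin-like protein that is attached to other proteins, went from 4.14, 3.82, 3.96 and 9.76 CPM to 39.7, 92.8 and 58.6 CPM, and rose by 3.25 ± 0.50 on the log2 scale (adjusted p = 0.00115). Ifit1, which binds viral RNA caps, was at 6.5, 4.06, 5.28 and 10.5 CPM and then at 30.3, 47.6 and 33.9 CPM (2.53 ± 0.45, adjusted p = 0.00222). Each day 22 library lay above each day 0 library for these 3 genes. Oas3 (3.44 ± 0.55, adjusted p = 0.00139) and Oasl2 (2.82 ± 0.53, adjusted p = 0.0032) belong to the same family as Oas2 and rose as well, whereas Oas1g and Oasl1 did not pass the test.

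The transcription factors that carry the signal rose together, with Irf9, Stat2 and Irf7 all past the test. Irf7, which amplifies type I interferon production, was at 63.6, 46.3, 21.6 and 31.5 CPM on day 0 and at 152, 207 and 166 CPM on day 22 (2.07 ± 0.40, adjusted p = 0.00451), without overlap. All 3 IFIT genes, Isg15 with its protease gene Usp18, and 8 of 8 other antiviral effectors rose, the smallest rise among the antiviral genes being that of Ifi35 (0.77 ± 0.22, adjusted p = 0.0353). Of the cytosolic RNA sensors, Ddx58 (RIG-I) and Dhx58 (LGP2) passed the test. Ifih1 (MDA5) stood apart, with 39.5 to 66.6 CPM on day 0, 48.6 to 62.1 CPM on day 22 and a log2 difference of -0.08 ± 0.34 (adjusted p = 0.931). None of Parp9, Parp14 and Dtx3l, which act together in ADP-ribosylation and ubiquitination, passed.

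Among the GTPases, a group with a part in defence against intracellular pathogens, only Gbp3 rose on the standard diet (1.40 ± 0.40, adjusted p = 0.0353). Gbp2 was at 51.6, 71.3, 45.9 and 162 CPM on day 0 and at 170.0, 293 and 148 CPM on day 22 (1.33 ± 0.55, adjusted p = 0.158). Iigp1 was at 9.28, 11.9, 11.7 and 91.2 CPM and then at 51.0, 184 and 80.3 CPM (1.41 ± 0.75, adjusted p = 0.303). For both genes the groups overlapped through 1 control, the 43 diet days replicate 2, which was above at least 1 day 22 library. Without that library 4 GTPases rose (Gbp3, Iigp1, Igtp and Gbp6), with 21 antiviral and 5 chemokine and antigen-processing genes.

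Cxcl9, a chemokine that draws CXCR3-bearing T cells, rose from 1.18, 1.27, 2.00 and 6.98 CPM to 22.5, 40.5 and 51.8 CPM (3.57 ± 0.78, adjusted p = 0.00856). Its relative Cxcl10 was at 1.88, 0.992, 1.11 and 18.3 CPM and at 7.2, 26.3 and 33.0 CPM (1.71 ± 0.95, adjusted p = 0.326), again with the same control inside the day 22 range. Psmb8 went from 38.2, 50.1, 56.3 and 79.7 CPM to 136, 248 and 184 CPM (1.57 ± 0.34, adjusted p = 0.0086), and Psmb9 (1.54 ± 0.37, adjusted p = 0.0142) and the peptide transporter Tap1 rose as well. The rise held for fewer genes in a fit of only the 2 groups, where 4 of the 41 passed, and for none where the ribosomal percentage was allowed to interact with diet and day. That last fit compares groups at the mean ribosomal percentage of all 26 samples, which lay above every day 0 library.

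**Figure D2:**
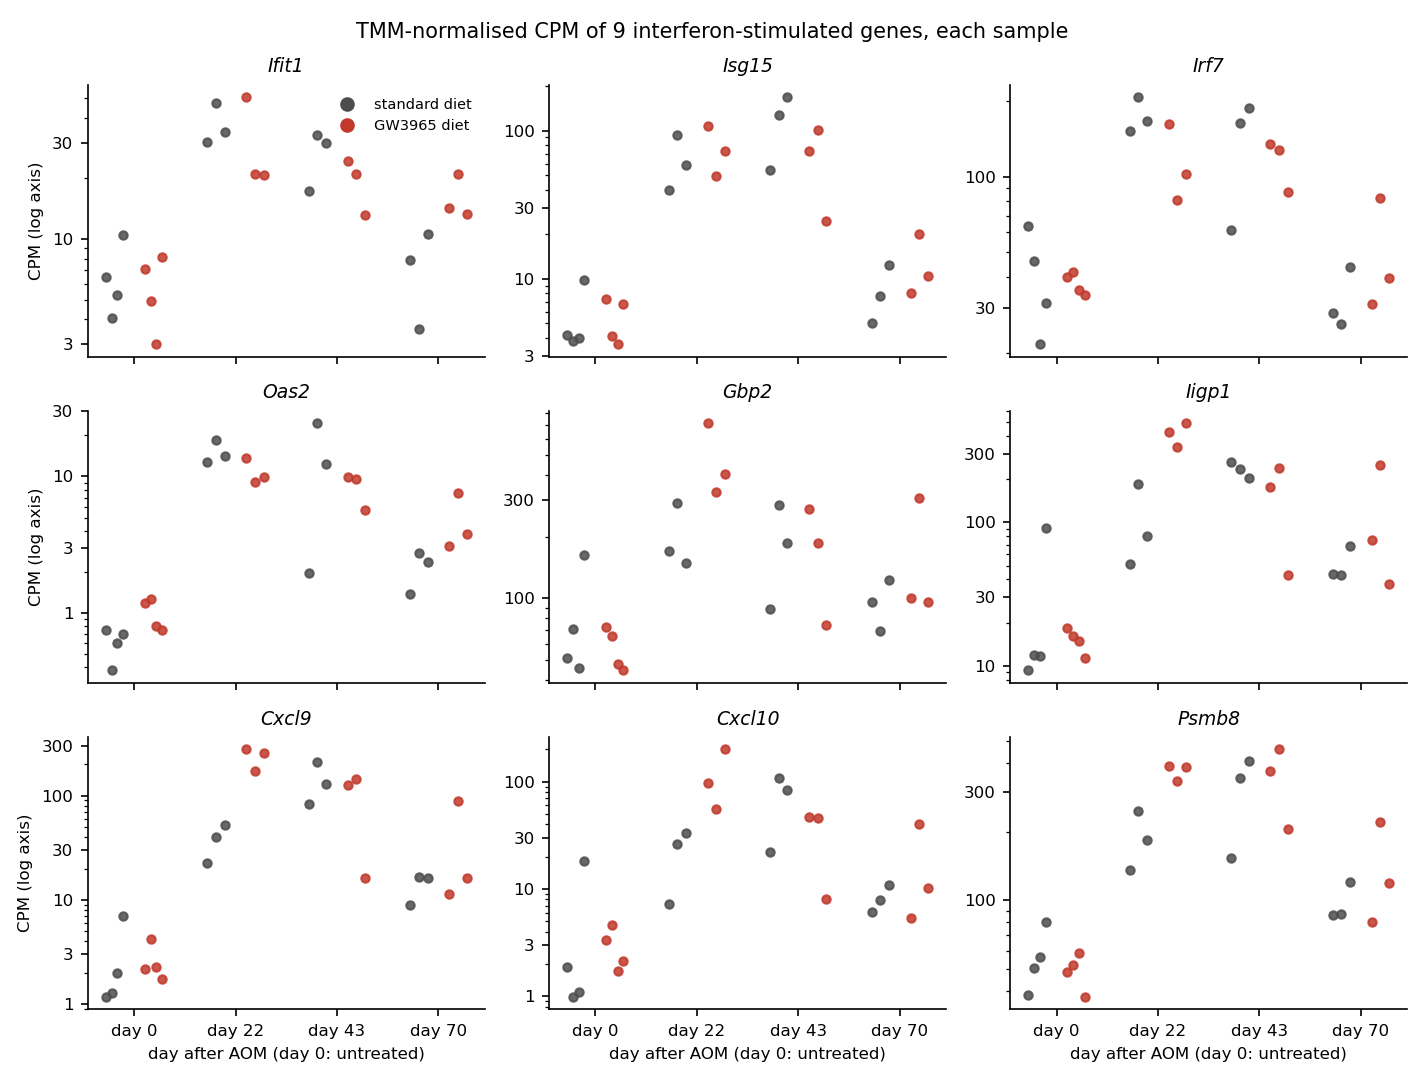
Level of 9 genes in each of the 26 libraries, in TMM-normalised CPM on a log axis, by day and diet (grey, standard; red, GW3965). Isg15, Ifit1 and Oas2 lie higher at day 22 than at day 0 in every library of both diets, and 1 standard diet day 0 library lies far above the other 3 for Iigp1, Cxcl9 and Cxcl10.

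In GW3965-fed mice the rise at day 22 reached nearly all of the module, the GTPases included. Against day 0 of the same diet 40 of 41 genes rose, where 12.6% of all genes were called, 9.13% as higher and 3.46% as lower, and only Ifih1 did not pass (0.15 ± 0.35, adjusted p = 0.838). All 8 GTPases and all 5 chemokine and antigen-processing genes were among them. The median log2 fold change was 1.51 for the antiviral genes, 2.98 for the GTPases and 3.13 for the chemokine and antigen-processing genes. With the ribosomal percentage allowed to interact with diet and day, none of the 41 passed.

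Cxcl9 had the largest fold of the module, from 2.16, 4.24, 2.25 and 1.74 CPM to 278, 173 and 255 CPM, a 77.1-fold rise (6.27 ± 0.85, adjusted p = 0.000139). Cxcl10 rose from 3.34, 4.63, 1.72 and 2.14 CPM to 97.6, 55.8 and 199.8 CPM (4.90 ± 1.04, adjusted p = 0.00431). Iigp1, an IRG that acts on the vacuole of Toxoplasma, rose from 18.4, 16.1, 15 and 11.4 CPM to 428, 337 and 493 CPM (4.44 ± 0.79, adjusted p = 0.00123). In all 3 genes the lowest day 22 library was far above the highest control. Gbp2 rose from 72.7, 65.4, 48.1 and 44.6 CPM to 714, 331 and 401 CPM (3.09 ± 0.56, adjusted p = 0.00139), and Gbp6 by 3.78 ± 0.61 (adjusted p = 0.000566), while Gbp7 had the smallest rise of the GTPases (1.97 ± 0.42, adjusted p = 0.00459).

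Psmb8 was at 48.3, 51.6, 58.8 and 37.6 CPM on day 0 and at 388, 335 and 387 CPM on day 22 (2.70 ± 0.35, adjusted p = 0.000103). Among the antiviral genes Zbp1, which senses Z-form nucleic acid and can start necroptosis, rose most (3.82 ± 0.53, adjusted p = 0.00016), and Ddx58 rose least (0.83 ± 0.22, adjusted p = 0.0189). Isg15 was at 7.27, 4.11, 3.62 and 6.71 CPM on day 0 and at 108, 49.5 and 72.5 CPM on day 22 (3.52 ± 0.50, adjusted p = 0.000195). Oas2 went from 1.18, 1.26, 0.794 and 0.746 CPM to 13.6, 9.17 and 9.92 CPM (3.47 ± 0.57, adjusted p = 0.000623), Ifit1 from 7.12, 4.89, 3.00 and 8.10 CPM to 50.9, 21 and 20.8 CPM (2.45 ± 0.44, adjusted p = 0.00134) and Irf7 from 40.1, 41.7, 35.4 and 33.8 CPM to 161, 80.9 and 102 CPM (1.56 ± 0.41, adjusted p = 0.0149). None of these 4 overlapped with its controls. All 27 genes that rose on the standard diet also rose on the GW3965 diet, where they made up 67.5% of those called. With 40 of the 41 genes called on GW3965, this overlap was nearly fixed in advance.

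**Figure D3:**
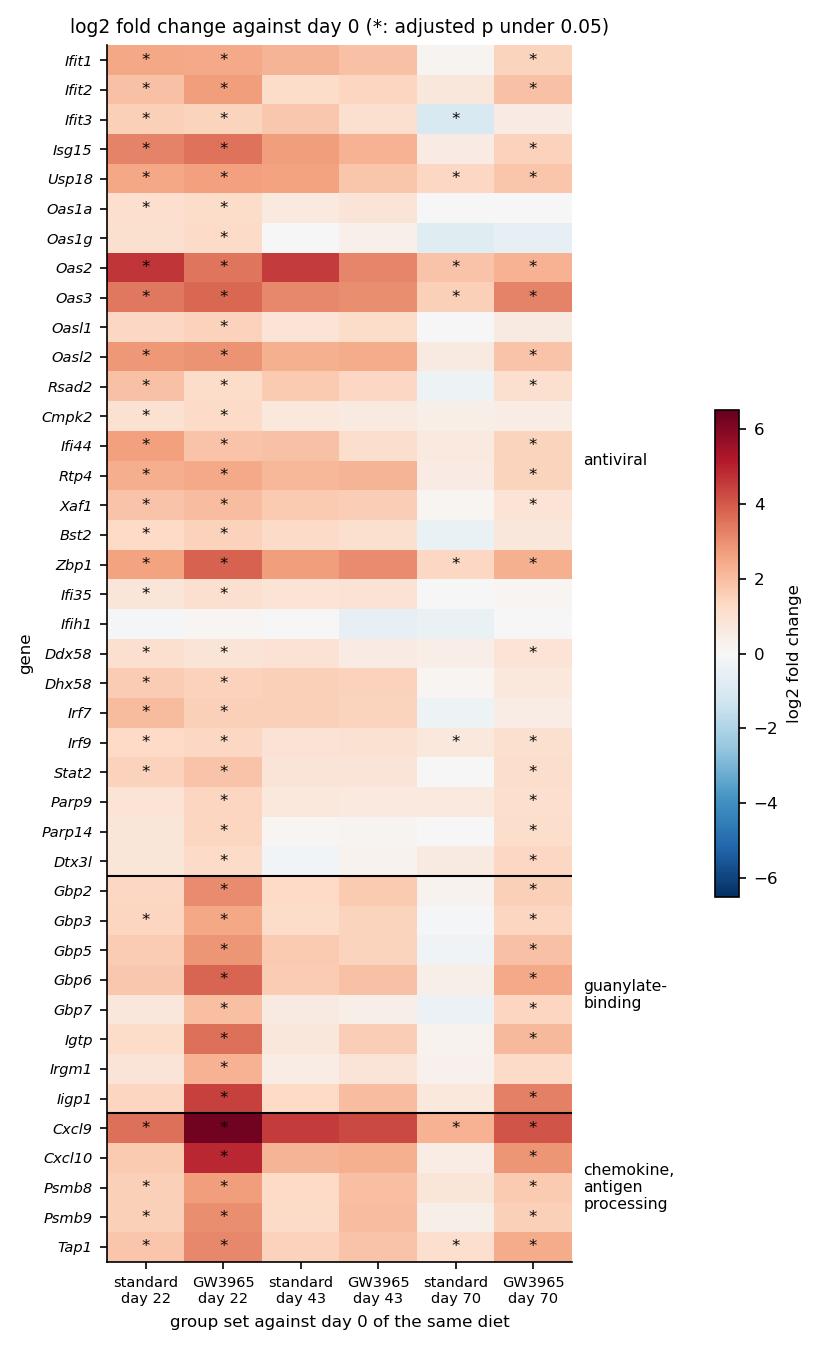
The log2 fold change of each of the 41 genes against day 0 of the same diet (columns: day 22, 43 and 70 of each diet), with an asterisk where the adjusted p is under 0.05. At day 22 asterisks stand on 27 genes for the standard and 40 for the GW3965 diet, at day 43 on none, and at day 70 on 8 and 30.

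Set against each other at day 22, the diets were close for the antiviral genes and further apart for the GTPases, chemokines and antigen-processing genes, but no gene passed the test. The corrected mean log2 CPM of the antiviral genes was 5.37 ± 0.20 (SD, n = 3) on the standard and 5.45 ± 0.37 (n = 3) on the GW3965 diet, with ranges of 5.17 to 5.57 and 5.2 to 5.87. For the GTPases it was 6.06 ± 0.47 and 7.33 ± 0.34, with ranges of 5.7 to 6.60 and 7.06 to 7.71 that did not overlap. For the chemokine and antigen-processing genes it was 6.21 ± 0.44 and 7.79 ± 0.24, and the ranges of 5.7 to 6.51 and 7.61 to 8.06 did not overlap either.

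By edgeR's quasi-likelihood test 0 of 41 genes passed the adjusted threshold at day 22, where 0.135% of all genes did (0.0879% higher and 0.0469% lower on GW3965), and DESeq2 called 1, Cxcl9. At an unadjusted p under 0.05 edgeR counted 1 of 28 antiviral genes, 5 of 8 GTPases and 5 of 5 chemokine and antigen-processing genes, against 9.96% of all genes tested. The GTPase count was 0 without standard diet replicate 1 or 3 or without GW3965 replicate 1, and the count of the 5 chemokine and antigen-processing genes was then 2, 5 and 3. CPM was higher in each GW3965 than in each standard library for 4, 7 and 5 genes of the 3 groups, and 12.1% of all genes were. The median log2 difference was 0.13 for the antiviral genes, 1.24 for the GTPases (0.68 for Gbp3 to 1.94 for Iigp1) and 1.12 for the chemokine and antigen-processing genes, and over all genes it was -0.0129. Cxcl9 had the smallest adjusted p (2.55 ± 0.78, adjusted p = 0.208), and Iigp1 was at 1.94 ± 0.77 (adjusted p = 0.378). Rsad2 had the most negative difference (-0.77 ± 0.31, adjusted p = 0.39).

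Whether the diet difference at day 22 exceeded that at day 0 was tested as an interaction. No gene passed (edgeR 0 of 41, DESeq2 0, smallest edgeR adjusted p 0.523), and 0.0234% of all genes did (0.0176% positive and 0.00586% negative). Unadjusted p was under 0.05 for 7 GTPases, 5 chemokine and antigen-processing genes and 0 antiviral genes, 12 in all, where 6.24% of all genes were. Without the standard diet day 0 library of 43 diet days replicate 2 this count was 1, without standard diet day 22 replicate 1 it was 4, and without the former library the median interaction of the GTPases went from 1.60 to 1.04. At day 0 itself no gene passed by edgeR or DESeq2 (0.0293% of all genes did by edgeR), 0 genes had an unadjusted p under 0.05 where 1.94% of all genes did, and the median difference was -0.09 (0.14 without that library).

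**Figure D4:**
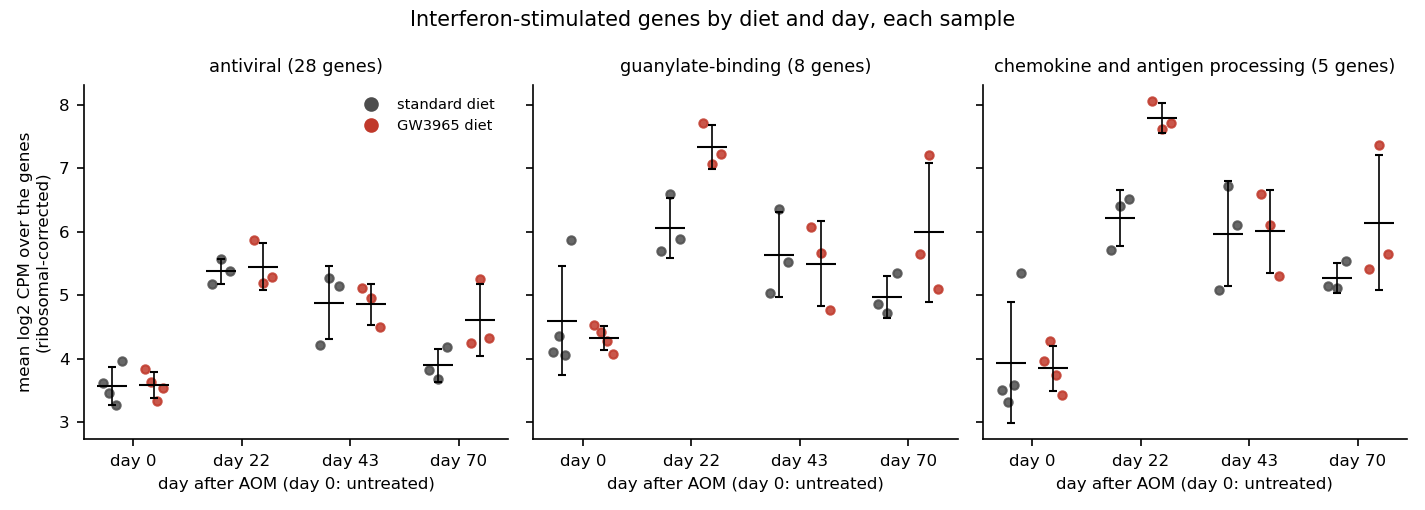
Ribosomal-corrected mean log2 CPM of the antiviral (28), guanylate-binding (8, GBP and IRG) and chemokine and antigen-processing (5) genes in each library by day and diet, with a black mark and bar for the group mean ± SD. At day 22 the diets overlap for the antiviral genes and do not overlap for the others, and at day 70 the GW3965 libraries spread widely.

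Other genes of the interferon system, from lists that hold none of the 41, were read beside them. These lists were also chosen with earlier results of these data known, so they are no independent support. Of 42 further interferon-stimulated genes tested 20 rose at day 22 on the standard and 34 on the GW3965 diet, and none fell. Lgals9 rose on both diets (1.83 ± 0.24, adjusted p = 0.000388 and 2.02 ± 0.24, adjusted p = 5.8e-05). Of 12 further genes of MHC class I presentation 5 and 9 rose, among them Nlrc5, the transactivator of these genes (2.60 ± 0.49, adjusted p = 0.00339 and 3.43 ± 0.50, adjusted p = 0.000241). Of 16 genes of nucleic acid sensing 1 and 4 rose, Tmem173 (STING) on both diets.

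Of 15 genes of interferon signalling and its brakes 3 rose on the standard diet (Socs3, Irf5 and Ptpn6) and 6 on the GW3965 diet, led by the feedback inhibitors Socs3 (4.24 ± 0.51, adjusted p = 6.53e-05) and Socs1 (4.09 ± 0.61, adjusted p = 0.000288). Of the 6 receptor genes only Ifnar2, a chain of the type I receptor, rose at day 22, on the standard diet (1.09 ± 0.29, adjusted p = 0.0229) and on the GW3965 diet (1.00 ± 0.29, adjusted p = 0.0289).

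The interferons themselves were mostly at or near 0. Of 20 ligand genes 2 passed the filter on low counts, Ifng and Ifne, and Ifnb1 was at 0 in all but 1 library. Ifne did not pass the test at day 43 against day 0 on the GW3965 diet (9.23 ± 3.30, adjusted p = 0.243). Ifng, made by T cells and natural killer cells, was at 0.0471, 0.0472, 0 and 0.446 CPM on day 0 and at 0.107, 1.22 and 0.982 CPM on day 22 of the standard diet. On the GW3965 diet it was at 0, 0.346, 0.0883 and 0.249 CPM and then at 6.74, 3.71 and 14.3 CPM, and it rose (4.63 ± 1.21, adjusted p = 0.0156). The 3 GW3965 values lay above the 3 standard values at day 22, but the difference between the diets did not pass the test (3.09 ± 1.16, adjusted p = 0.348).

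Immune cell markers moved with these genes. Of 10 T and natural killer cell markers 4 rose at day 22 on the standard and 8 on the GW3965 diet, and of 10 macrophage and monocyte markers 4 and 7 did. Between the diets at day 22 no marker passed. The summed T and natural killer cell level was 81.8, 158 and 119.9 CPM on the standard and 141, 133 and 154 CPM on the GW3965 diet, which overlap, against 11 to 37.5 CPM on day 0 of both diets. The macrophage and monocyte level was 547, 812 and 896 CPM against 905, 701 and 598 CPM. The summed level of 6 neutrophil markers was 39.98, 389 and 590.3 CPM on the standard and 294, 83.9 and 387 CPM on the GW3965 diet, against 1.69 to 6.74 CPM on day 0, and 5 of the 6 rose on each diet. The part of these cells in the result was not tested.

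At day 43 most of the module still read high, but no gene passed the test in the ribosomal-corrected fit. On the standard diet 39 of 41 genes had a positive difference from day 0 (median log2 1.31, 0.06 over all genes), 15 had an unadjusted p under 0.05 (8.02% of all genes) and DESeq2 called 2, while by edgeR no gene of the whole table passed. On the GW3965 diet 40 were positive (median 1.44, 0.03 over all genes), 21 had an unadjusted p under 0.05 (13.6% of all genes) and DESeq2 called 9, while edgeR called 0.938% of all genes (0.897% higher and 0.041% lower) and no member. The shares of all genes at this day are those of edgeR, and none is given for DESeq2. Without the ribosomal term 33 and 34 genes rose, where 55.1 and 45.3% of all genes were called in either direction. Without standard diet day 43 replicate 2 the count of 15 was 1, with a median of 0.79 for the module and 0.19 for the GTPases, and without standard diet day 0 of 43 diet days replicate 2 it was 23. Whether the ribosomal percentages of this day, 10.0 to 18.6%, set these values was not tested.

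Cxcl9 shows the spread at this day, with 83.3, 211 and 129 CPM on the standard and 128, 146 and 16.4 CPM on the GW3965 diet. Isg15 was at 54.6, 128 and 169 CPM on the standard diet and at 72.7, 102 and 24.4 CPM on the GW3965 diet. Oas2 was at 1.96, 24.6 and 12.4 CPM and at 9.87, 9.54 and 5.68 CPM. Standard diet replicate 1, the library with an RNA integrity number of 2.6, had the lowest value of its group in these 3 genes, and GW3965 replicate 3 the lowest of the other group. Iigp1 was at 264, 237 and 204 CPM and at 177, 239 and 42.7 CPM, and here replicate 1 of the standard diet was the highest. Between the diets no gene passed by edgeR or DESeq2 at day 43, with 0 genes at an unadjusted p under 0.05 (8.65% of all genes) and a median difference of -0.14, and the interaction with day 0 gave 0 genes as well by both tools and 0 unadjusted (4.37% of all genes). The sign of that median rested on 1 library: without standard diet replicate 2 it was 0.30, with 30 of 41 genes positive, and without standard diet replicate 1 there were 5 genes at an unadjusted p under 0.05.

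The summed level of neutrophil markers at this day was 2300, 12669 and 2933 CPM on the standard and 3004, 1386 and 699 CPM on the GW3965 diet. Of the 6 markers 4 rose against day 0 on the GW3965 diet (Cxcr2, Csf3r, S100a8 and S100a9) and none passed on the standard diet. Standard diet replicate 2, whose loss moved the values above, had the highest neutrophil level and the lowest level of colon epithelium genes of the 6 day 43 libraries. The latter were at 3960, 2607 and 4042 CPM on the standard and 5192, 3883 and 4782 CPM on the GW3965 diet, against 6080 to 11912 CPM on day 0. The part of these cells in the result was not tested.

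By day 70, the module had come down on the standard diet. Against day 22, 24 of 41 genes fell and none rose, where 31.8% of all genes were called, 15.5% as higher and 16.3% as lower, and the median difference was -1.29. They were 21 antiviral genes, among them all 6 OAS and all 3 IFIT genes, the GTPases Gbp3 (-1.47 ± 0.43, adjusted p = 0.0139) and Gbp5 (-1.85 ± 0.62, adjusted p = 0.0281), and Psmb9 (-1.16 ± 0.40, adjusted p = 0.0305). The largest falls were those of Oas2 (-2.82 ± 0.59, adjusted p = 0.00223), Isg15 (-2.70 ± 0.53, adjusted p = 0.00163), Ifit3 (-2.52 ± 0.41, adjusted p = 0.000731), Irf7 (-2.39 ± 0.44, adjusted p = 0.00116) and Ifit1 (-2.37 ± 0.48, adjusted p = 0.00192), and the smallest among the antiviral genes that of Ifi35 (-0.74 ± 0.23, adjusted p = 0.0225). Without standard diet day 70 replicate 2 the count was 15, and with the ribosomal percentage allowed to interact with diet and day it was 0.

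Against day 0, 7 of 41 genes were higher and 1 was lower on the standard diet at day 70, where 33.2% of all genes were called, 18.1% as higher and 15.1% as lower, and the median difference was 0.36. The 7 of 41 were close to the share of all genes called higher, so by this count the module did not stand out. The higher ones were Cxcl9 (2.24 ± 0.73, adjusted p = 0.0242), Oas2 (1.83 ± 0.55, adjusted p = 0.0149), Oas3 (1.55 ± 0.52, adjusted p = 0.0262), Usp18, Zbp1, Tap1 and Irf9, and none was a GTPase. Ifit3 was the lower one, at 8.86, 13.7, 9.19 and 11.8 CPM on day 0 and 4.31, 4.70 and 7.61 CPM on day 70 (-0.97 ± 0.37, adjusted p = 0.0495), against the direction of the other antiviral genes called. Isg15 was at 5.05, 7.62 and 12.4 CPM, Ifit1 at 7.83, 3.57 and 10.6 CPM and Irf7 at 28.7, 26 and 43.6 CPM, inside or near their day 0 ranges. Leaving out 1 library at a time gave 2 to 12 genes called: 4 without standard diet day 0 of 22 diet days replicate 1, 2 without its replicate 2, 2 without 43 diet days replicate 1, 12 without 43 diet days replicate 2, and 4, 5 and 3 without day 70 replicate 1, 2 and 3.

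On the GW3965 diet the module was still high at day 70. Against day 0 of that diet 30 of 41 genes rose and none fell, where 21.8% of all genes were called, 14.4% as higher and 7.43% as lower, with 18 antiviral genes, 7 of 8 GTPases (all but Irgm1) and all 5 chemokine and antigen-processing genes. The median log2 fold change was 1.42, where that over all genes was 0.10. Cxcl9 (4.08 ± 0.79, adjusted p = 0.00135), Iigp1 (3.28 ± 0.76, adjusted p = 0.00465), Oas3 (3.23 ± 0.55, adjusted p = 0.000488), Cxcl10 (2.88 ± 0.96, adjusted p = 0.0363) and Gbp6 (2.47 ± 0.59, adjusted p = 0.0055) had the largest folds. The smallest rises of the groups were those of Ddx58 (0.87 ± 0.22, adjusted p = 0.00847), Gbp7 (1.42 ± 0.42, adjusted p = 0.0198) and Psmb9 (1.55 ± 0.37, adjusted p = 0.00564). All 7 genes that were higher on the standard diet were among the 30, of which they made up 23.3%.

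One library was the highest in most of these genes. Cxcl9 was at 11.4, 89.6 and 16.2 CPM in GW3965 day 70 replicate 1, 2 and 3. Iigp1 was at 75.5, 253 and 37.1 CPM, and Gbp2 at 101, 309 and 96.5 CPM. Replicate 2 was the highest in all 3 genes, and in Isg15 (7.98, 20.1 and 10.5 CPM), Oas2 (3.07, 7.59 and 3.81 CPM), Irf7 (31.1, 81.9 and 39.6 CPM), Cxcl10 (5.32, 40.3 and 10.2 CPM) and Psmb8 (80.2, 222 and 119 CPM). Without it 13 genes rose and 1 fell, with 1 GTPase (Iigp1) and 3 chemokine and antigen-processing genes among the 13, and the median log2 fold change was 0.83. The share of all genes called without it is not given here. A fit of only these 2 groups, or one with interactions of the ribosomal percentage, called 0 genes. With the interactions Iigp1 (-1.86), Gbp6 (-2.18) and Gbp7 (-2.81) took the other sign, as did Gbp7 (-0.15) in the fit of the 2 groups. The mean ribosomal percentage at which the interaction fit is read lay above every library of both groups, so its values were extrapolated. Replicate 2 also had 361 CPM of summed B cell markers, against 49.96 and 18.7 CPM in replicates 1 and 3, and 85 CPM of T and natural killer cell markers, against 42.8 and 25.3 CPM, and their part in the result was not tested.

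From day 22 to day 70 on the GW3965 diet 3 genes fell, Isg15 (-2.02 ± 0.57, adjusted p = 0.0482), Oas1g (-1.77 ± 0.41, adjusted p = 0.0214) and Ifi35 (-0.93 ± 0.26, adjusted p = 0.048), where 4.41% of all genes were called, 2.81% as higher and 1.6% as lower. The median difference was -0.95. This count rested on single libraries: it was 16 without day 70 replicate 2, 1 without day 70 replicate 1 or without day 22 replicate 3, and 0 without day 70 replicate 3 or without day 22 replicate 1 or 2.

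Between the diets at day 70 all 41 genes had a higher fitted level on GW3965, and 2 of them, both antiviral, passed the test, where 1.83% of all genes were called, 1.75% as higher and 0.082% as lower. Ifit3 was at 4.31, 4.70 and 7.61 CPM on the standard and at 22.7, 21.2 and 10.8 CPM on the GW3965 diet (1.69 ± 0.41, adjusted p = 0.0406). Rsad2, which encodes viperin, was at 2.58, 3.00 and 3.17 CPM and at 8.8, 7.15 and 5.62 CPM (1.30 ± 0.33, adjusted p = 0.0469). In both genes every GW3965 library was above every standard library. For Ifit3 the standard libraries were also below each of the 8 day 0 libraries of either diet (8.86 to 13.7 CPM), while for Rsad2 the GW3965 libraries were above all of them (2.64 to 4.46 CPM).

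The median diet difference at day 70 was 0.77 for the antiviral genes, 1.26 for the GTPases and 1.08 for the chemokine and antigen-processing genes, where that over all genes was 0.02. In 21 of 41 genes the unadjusted p was under 0.05, as it was in 18.8% of all genes, and this count was 9 without standard diet replicate 1, 9 without its replicate 2 and 5 without GW3965 replicate 2. Groups did not overlap in CPM, with GW3965 higher, for 10 antiviral genes, 1 GTPase and 1 chemokine or antigen-processing gene, and 10.5% of all genes were so. Gbp5 (1.93 ± 0.63, adjusted p = 0.105) and Gbp7 (1.42 ± 0.45, adjusted p = 0.1) had among the larger differences, and Isg15 was at 0.90 ± 0.52 (adjusted p = 0.363). DESeq2 called 8 genes: Rsad2, Ifit3, Ifi44, Parp14, Stat2, Bst2, Gbp5 and Gbp7. The share of all genes that DESeq2 called is not given here, so this count has no background beside it. Among the 42 further interferon-stimulated genes Slfn5 (1.60 ± 0.30, adjusted p = 0.0182) and Oas1b (1.42 ± 0.36, adjusted p = 0.0475) were higher on GW3965. Slfn5 was at 15.8, 14.8 and 11.5 CPM on the standard and at 57.8, 52.2 and 27.0 CPM on the GW3965 diet, without overlap.

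Both calls depended on single libraries and on the fit. With interactions of the ribosomal percentage Ifit3 (-1.62) and Rsad2 (-0.37) took the other sign and 0 genes passed, and 0 passed with a replicate block, with no filter on low counts, in a fit of only the 2 groups and without the sample of conflicting labels. The interaction fit was again read at a ribosomal percentage above that of every day 70 library. Without GW3965 day 70 replicate 2, the library that stood high, Rsad2 and Ifit3 were still called and 35 of 41 genes were positive with a median of 0.40. The count was 0 without standard diet replicate 1, 2 or 3 or without GW3965 replicate 1, and 8 without GW3965 replicate 3. The interaction with day 0 gave 0 genes by edgeR (no gene of the whole table passed) and 0 by DESeq2, with a median of 0.98, a smallest adjusted p of 0.212 and 16 genes at an unadjusted p under 0.05 (12.7% of all genes), and 2 genes passed without GW3965 day 70 replicate 3. The 16 became 8 without standard diet day 0 of 43 diet days replicate 2, 4 without GW3965 day 70 replicate 2 and 10 without standard diet day 70 replicate 1 or 2. Marker lists also differed between the diets here, with 6 of 6 B cell markers and 1 of 10 T and natural killer cell markers (Cd4) higher on GW3965. The summed B cell level was 4.68, 9.75 and 5.45 CPM on the standard and 49.96, 361 and 18.7 CPM on the GW3965 diet, the summed neutrophil level was 174, 619 and 294 CPM and 1065, 147 and 1177 CPM, and plasmacytoid dendritic cell markers, of a cell type known for type I interferon, were at 2.58, 5.96 and 4.14 CPM and at 71.7, 9.58 and 3.92 CPM. The part of these cells in the result was not tested.

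**Figure D5:**
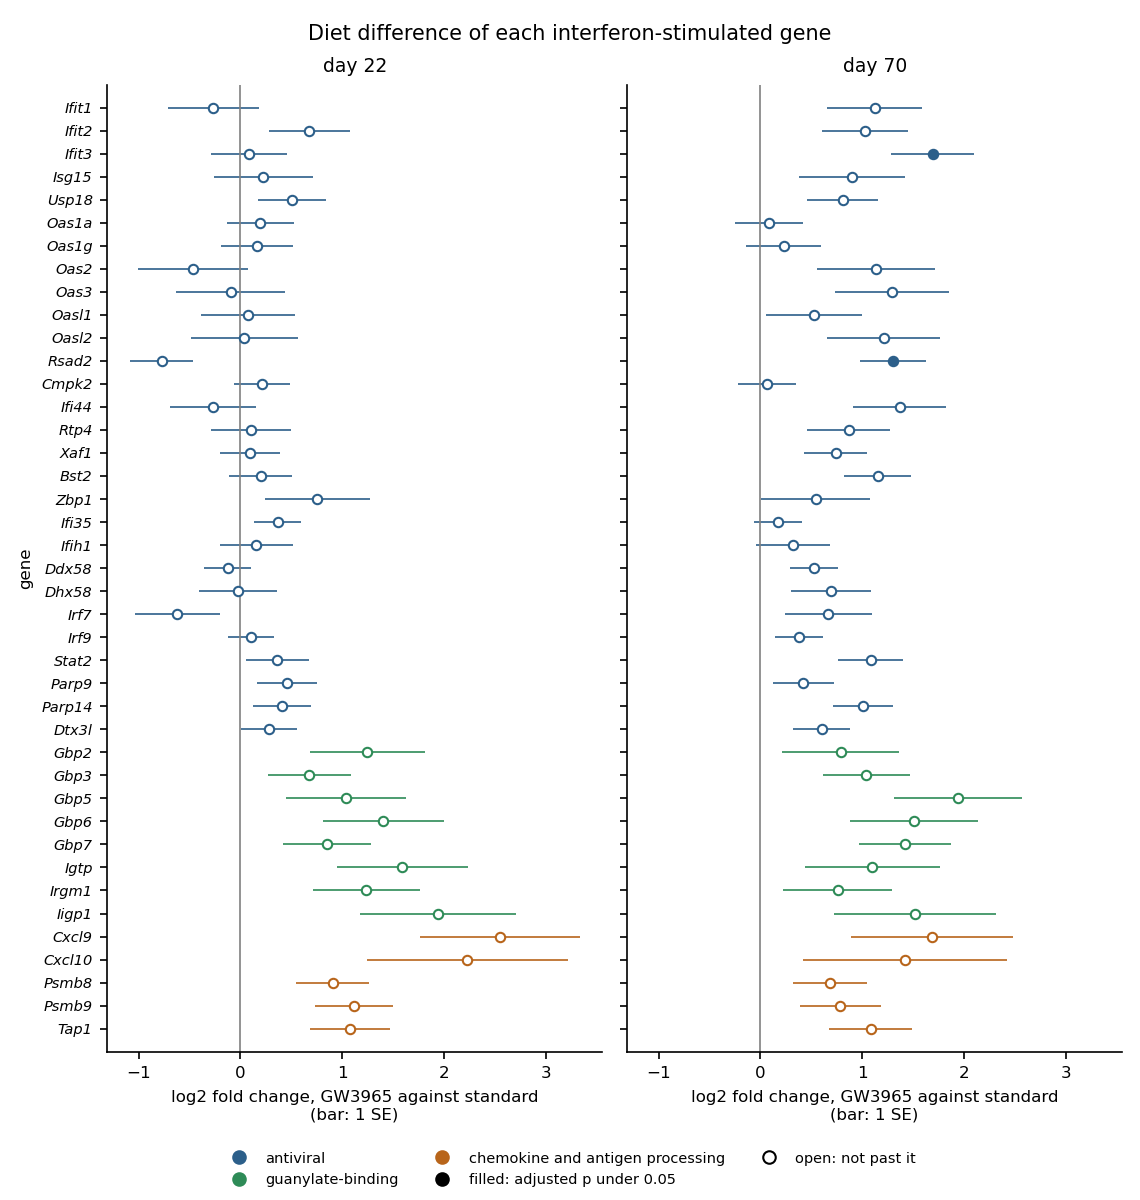
The log2 fold change of each of the 41 genes, GW3965 against standard diet, at day 22 (left) and day 70 (right), with bars of 1 SE and filled points where the adjusted p is under 0.05. At day 22 the points of the antiviral genes scatter around 0 with a median of 0.13 while those of the GTPases and the chemokine and antigen-processing genes lie above 0, and at day 70 all 41 lie above 0, of which only Ifit3 and Rsad2 are filled.

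Some of these genes share reads or ground with others, and how strand was treated in the counting is not given in the sources used here. Oas1a and Oas1g, Ifit3 and Ifit3b, and the GBP genes are close paralogs whose estimated counts may be split unevenly. Parp9 and Dtx3l, Psmb9 and Tap1, Rtp4 and Masp1, Irf7 and Phrf1, and Cxcl10 and Art3 overlap on opposite strands, and Irf9 and Rnf31, Igtp and Irgm2, Gbp6 and Gm43302, and Gbp7 and Gm43802 on the same strand.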

How the data were processed

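Colon polyA RNA of 26 mice was sequenced on a NovaSeq, and per the labels kallisto with GRCm38 was used. The authors deposited, per transcript, estimated counts (kallisto's expected counts) and TPM, both used here. The kallisto version and strand setting are not given in the sources used here. Estimated counts were summed to genes with the GENCODE annotation (116728 of 119414 transcripts matched, 0.615 to 0.999% of counts unmatched) and rounded, and TPM was summed likewise. The members and lists were chosen with earlier results of these data known.

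Of 35975 genes, 17063 passed edgeR's filter on low counts. One fit over the 8 groups of diet and day (edgeR 4.0.16, R 4.3.3, TMM, quasi-likelihood F-test, Benjamini-Hochberg over all genes tested, threshold 0.05) included the centred percentage of counts on ribosomal protein genes as an additive term. The study's model used the percentage of ribosomal RNA with its interactions with diet and time and a likelihood ratio test; the ribosomal protein genes stand in for that percentage here, and whether the 2 measures match is not given in the sources used here. Group means are of log2 CPM (prior count 2) corrected for that percentage with limma 3.58.1, and CPM of single libraries are TMM-normalised and not corrected. The script was tested on simulated counts. P-values measure the spread between libraries of the same group. Outside day 70 the libraries of a group came from mice of the same cage, so their spread holds no variation between cages. At day 70 it does, and the fit over all groups pools both kinds of spread. The paper's reporting summary describes pooling of biological replicates for bulk RNA sequencing, while its figure legend counts mice per timepoint. Each library is treated here as a single mouse.

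Genes described were chosen by rule: 9 genes in any case, every member called between diets, and in each contrast over time the 5 largest called changes in each direction, the largest and smallest of each group and any member against its group's direction. From each list came the called genes of smallest p, Ifng, Ifnb1, Nlrc5 and the receptors, and 1 further gene of the rule is not reported here. Gbp5 and Gbp7 at day 70 and Rsad2 at day 22 were chosen after their values were seen, as was the naming of single libraries. DESeq2 1.42.0, other size factors, no filter, other ribosomal terms, the RNA integrity number, a replicate block, fits of only the groups compared and leaving out each library were the alternatives. Shares of all genes called are those of edgeR fits, and no such share is given for DESeq2.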

Additional observations from a re-analysis of the deposited data

Results flagged for a closer look

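One library stood apart from its group. Among the 4 standard diet day 0 samples, the 43 diet days replicate 2 was the highest with a gap to the next sample that was most of the group's range. Iigp1 was at 91.2 CPM there and at 11.9 CPM in the next highest sample. Cxcl10 was at 18.3 CPM against 1.88, Cxcl9 at 6.98 CPM against 2.00 and Isg15 at 9.76 CPM against 4.14. The mean log2 CPM of the guanylate-binding genes was 5.87 against 4.35, and that of the chemokine and antigen-processing genes 5.35 against 3.58. Of 26 values checked in this way these 6 passed Dixon's 95% critical ratio, all in the same library, so they are not separate observations, and chance passes about 1 in 20 groups. The RNA integrity number of all 4 samples was 10.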

How the results depend on the processing

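The counts of genes called were recomputed under each alternative, and 208 stayed within 1.5 times the value reported while 49 did not. The 208 include every count of 0 that stayed at 0, so they overstate how steady the calls were. Apart from the fit with no ribosomal term, no share of all genes called is given for these alternatives, DESeq2 and the fits without 1 library included. Their counts, here and above, cannot tell a change of the module from a change of the whole table. Leaving out 1 library moved 6 of 7 counts for day 70 against day 0 on the standard diet. It moved 6 of 6 for day 70 against day 22 on GW3965 and 5 of 6 between the diets at day 70. For day 22 against day 0 it moved 0 of 7 on either diet. DESeq2 gave 1 gene between the diets at day 22, 8 between them at day 70, 2 and 9 at day 43 against day 0 on the standard and GW3965 diets, and 6 from day 22 to day 70 on GW3965. DESeq2's size factors in edgeR gave 1 between the diets at day 70. No filter gave 0 there and 1 from day 22 to day 70 on GW3965, and leaving out the sample of conflicting labels gave the same 0 and 1. With no ribosomal term 33 and 34 genes were called at day 43 on the standard and GW3965 diets and 17 from day 22 to day 70 on GW3965. In those fits 55.1, 45.3 and 25% of all genes were called in either direction. With ribosomal interactions the count was 0 for the diets at day 70, for days 22 and 70 against day 0 on either diet and for day 70 against day 22 on either diet. There Ifit3 (-1.62) and Rsad2 (-0.37) between the diets at day 70, and Gbp6 (-2.18), Gbp7 (-2.81) and Iigp1 (-1.86) at day 70 against day 0 on GW3965, took the other sign, and the cause was not tested. This fit compares groups at the mean ribosomal percentage of all 26 samples. The day 0 libraries (5.33 to 6.51%) and day 70 libraries (3.96 to 6.66%) all lay below that mean, so their fitted values were extrapolated from 3 or 4 libraries per group. A term for RNA integrity gave 7 between the diets at day 70 and 8 at day 43 on GW3965. Fits of only the groups compared gave 0 between the diets at day 70, 4 at day 22 on the standard diet, and on GW3965 4 at day 43, 0 at day 70 against day 0 (Gbp7 at -0.15) and 0 at day 70 against day 22, with fewer samples in each fit. Replicate numbers did not pair the samples: of 13 pairs the mean correlation of deviations was 0.0166 (-0.478 to 0.323), and with the replicate block 0 genes passed between the diets at day 70, while other counts stayed within 1.5 times. Leaving out 1 library at a time gave 18 to 30 at day 22 and 2 to 12 at day 70 on the standard diet, 15 to 22 from day 22 to day 70 on it, 0 to 1 at day 43, and on GW3965 28 to 40 at day 22, 14 to 30 at day 70, 0 to 16 from day 22 to day 70, 0 to 8 between the diets at day 70 and 0 to 2 for the interaction at day 70. At this depth 18 of the 20 ligand genes were too low to be tested.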
